A study of Mus musculus with 27 samples.

Results

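The livers of mice given TCDD at 10 µg/kg were compared with the livers of mice given the sesame oil vehicle. TCDD (2,3,7,8-tetrachlorodibenzo-p-dioxin) is a persistent dioxin that binds the aryl hydrocarbon receptor (AhR). The 10 µg/kg group was taken by its dose label and the vehicle group by its treatment label, which gave 3 livers each, 6 of the 27 livers of a series with 8 doses of TCDD. All 27 animals were ovariectomized female C57BL/6 mice with a labelled age of 120 days, gavaged every 4 days for 92 days (one label also calls the gavage daily), so ovariectomy and gavage were shared by both groups. RNA was extracted from whole liver, and reads were counted per gene. The design text calls the 3 livers of a dose biological replicates, and no label says whether animals were pooled or at what hour of the day livers were taken.

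The 10 µg/kg libraries held 25105746, 19999504 and 21020124 reads counted on genes, and the vehicle libraries held 26212424, 19906704 and 29460863. Levels are given as CPM, read counts scaled to a common library size, with each library total corrected by a TMM factor, and each list of 3 values runs in the order of the labelled replicates. By the deposited library names the vehicle livers shared their 3 index sequences with the 30 µg/kg livers. The 10 µg/kg livers carried 3 others that no other group shared. Index and dose therefore cannot be told apart in the comparison with vehicle or in those with other doses. Transcripts of hepatocyte genes dominated both groups. Alb, the gene of serum albumin, ranked 1 of 13250 protein-coding nuclear genes per transcript length in both groups, at 101493 ± 14796 CPM at 10 µg/kg against 139107 ± 49133 CPM in vehicle livers (SD, n = 3 each). In such bulk RNA, fewer cells of a type and less RNA per cell cannot be told apart.

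AhR is a transcription factor that waits in the cytoplasm in a complex with heat shock protein 90 and other chaperones. On binding a ligand it moves to the nucleus, pairs with ARNT and binds DNA at xenobiotic response elements, whose core letters are GCGTG. Its classical targets in liver are the Cyp1 monooxygenases, several conjugating and redox enzymes, and its own repressors AHRR and TIPARP, which close a feedback loop. Long exposure of rodents to dioxin is known for fatty liver, inflammation and fibrosis.

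The windows from 250 bases before to 50 bases after the gene start are shown for 3 classical targets and for the collagen gene Col9a2 and the oxidase gene Hao1, which had some of the largest changes in either direction. They come from RefSeq on GRCm38.p6 and are written 5′ to 3′ on the gene's strand, and capitals mark GCGTG or its reverse complement CACGC.
Ahrr (chr13:74292282-74292581, minus strand): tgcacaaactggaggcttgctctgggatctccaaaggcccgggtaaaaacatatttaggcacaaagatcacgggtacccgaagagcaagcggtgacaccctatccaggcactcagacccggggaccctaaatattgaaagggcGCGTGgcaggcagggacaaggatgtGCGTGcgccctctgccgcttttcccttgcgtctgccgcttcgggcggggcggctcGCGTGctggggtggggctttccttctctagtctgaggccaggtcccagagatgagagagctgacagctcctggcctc
Cyp1a1 (chr9:57697363-57697662, plus strand): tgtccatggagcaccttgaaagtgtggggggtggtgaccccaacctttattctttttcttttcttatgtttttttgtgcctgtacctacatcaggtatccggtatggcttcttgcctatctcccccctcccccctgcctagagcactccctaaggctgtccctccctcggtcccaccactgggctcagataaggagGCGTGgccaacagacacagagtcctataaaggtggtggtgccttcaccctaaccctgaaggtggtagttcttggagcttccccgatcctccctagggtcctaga
Cyp1b1 (chr17:79715012-79715311, minus strand): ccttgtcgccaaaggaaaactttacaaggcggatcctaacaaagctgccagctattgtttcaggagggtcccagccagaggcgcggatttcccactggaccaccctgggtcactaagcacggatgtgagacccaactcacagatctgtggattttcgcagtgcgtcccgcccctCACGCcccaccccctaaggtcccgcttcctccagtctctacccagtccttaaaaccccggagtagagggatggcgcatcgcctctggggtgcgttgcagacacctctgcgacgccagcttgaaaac
Col9a2 (chr4:121039316-121039615, plus strand): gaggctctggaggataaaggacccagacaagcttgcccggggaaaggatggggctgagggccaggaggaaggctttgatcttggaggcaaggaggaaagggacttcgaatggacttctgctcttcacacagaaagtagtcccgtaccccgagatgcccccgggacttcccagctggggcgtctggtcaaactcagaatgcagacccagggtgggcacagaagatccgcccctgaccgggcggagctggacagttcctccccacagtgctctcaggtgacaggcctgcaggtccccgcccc
Hao1 (chr2:134554303-134554602, minus strand): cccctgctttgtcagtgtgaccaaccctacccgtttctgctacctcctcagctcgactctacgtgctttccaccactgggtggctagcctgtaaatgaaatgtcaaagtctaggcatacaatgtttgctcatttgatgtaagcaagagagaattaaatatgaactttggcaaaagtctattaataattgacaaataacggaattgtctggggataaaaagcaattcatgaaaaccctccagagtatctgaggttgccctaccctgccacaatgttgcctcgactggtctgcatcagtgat
The Ahrr window held 3 cores, the Cyp1a1 and Cyp1b1 windows held 1 each, and those of Col9a2 and Hao1 held 0. The core was present in the windows of 6 of the 11 genes of the AhR battery that had 1 window in the table. It was also present in 50.2% of the 8706 tested genes with 1 window, in 44.9% of the genes called higher at 10 µg/kg and in 48.4% of the genes called lower. A match is a description of letters in this window and says nothing of enhancers further away.

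The AhR target battery rose almost as a whole at 10 µg/kg. Of its 14 tested members, 12 passed the test upward and 0 downward, with a median log2 fold change of 3.07. A gene was called when edgeR's quasi-likelihood test gave a Benjamini-Hochberg adjusted p below 0.05 over the 15121 genes tested. Over all those genes 22.5% were called, 11.3% higher and 11.2% lower, and the median log2 fold change was -0.03.

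Cyp1a1, which oxidises polycyclic aromatic hydrocarbons and is the most used marker of AhR activity, measured 4941, 6381 and 5885 CPM in the 10 µg/kg livers, against 3.69, 3.19 and 2.49 CPM in the vehicle livers (log2 fold change 10.84, SE 0.33, adjusted p = 3.46e-18). Every 10 µg/kg liver lay more than 1000-fold above every vehicle liver. Cyp1b1, a related oxidase of steroids and carcinogens that is hardly expressed in normal liver, measured 581, 727 and 850.0 CPM at 10 µg/kg, against 0.821, 0.784 and 0.682 CPM in vehicle livers (log2 fold change 9.87, SE 0.37, adjusted p = 2.31e-16). Cyp1a2, the constitutive hepatic member of the family, was already abundant in the vehicle livers. It measured 14422, 20739 and 20005 CPM in the 10 µg/kg livers, against 777, 664 and 743 CPM in the vehicle livers (log2 fold change 4.66, SE 0.25, adjusted p = 3.15e-13). Per transcript length, Cyp1a2 ranked 4 of 13250 genes at 10 µg/kg against 111 in the vehicle group, and Cyp1a1 ranked 15 against 9019. The 2 genes lie side by side on chromosome 9 (Cyp1a1 at chr9:57687928-57703824, plus strand, GRCm38).

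The repressors of the receptor rose as well. Ahrr, which competes with AhR for ARNT, measured 67.9, 54.7 and 68.5 CPM at 10 µg/kg, against 0.224, 0.105 and 0.120 CPM in vehicle livers (log2 fold change 8.63, SE 0.33, adjusted p = 2.31e-16). Tiparp, an ADP-ribosyltransferase that marks AhR for breakdown, measured 44.9, 50.7 and 65.7 CPM in the 10 µg/kg livers, against 4.29, 5.80 and 5.86 CPM in the vehicle livers (log2 fold change 3.34, SE 0.29, adjusted p = 5.63e-09). Neither gene's groups overlapped.

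Among the conjugating and redox members, Nqo1, a quinone reductase, measured 71.1, 92 and 98.7 CPM at 10 µg/kg, against 12, 13.1 and 12.6 CPM in vehicle livers (log2 fold change 2.79, SE 0.20, adjusted p = 6.87e-11), with groups well apart. Ugdh, which makes the UDP-glucuronate used in glucuronidation, rose with a log2 change of 2.04 (SE 0.20, adjusted p = 4.32e-08). Xdh, the purine oxidase, rose with 1.22 (SE 0.19, adjusted p = 3.87e-05), and Nfe2l2, which encodes the antioxidant factor NRF2, with 1.12 (SE 0.16, adjusted p = 8.07e-06). Ugt1a6a, a glucuronosyltransferase of phenols, changed by 0.94 (SE 0.21, adjusted p = 0.00238), and Ugt1a6b by 0.47 (adjusted p = 0.105), which missed the threshold. The 2 Ugt1a6 genes share exons, so their counts may be split between them. Gsta1, a glutathione transferase, measured 0.301, 3.76 and 2.91 CPM in the 10 µg/kg livers, against 0.224, 0 and 0.201 CPM in the vehicle livers (log2 fold change 3.85, SE 1.00, adjusted p = 0.00805), with the first 10 µg/kg liver just above the vehicle livers and the other two far above. Reads of Gsta1 may also be shared with near-identical Gsta genes. Aldh3a1, an aldehyde dehydrogenase switched on by dioxin in other tissues, had few counts. Its pooled level at 10 µg/kg over vehicle was 26.4 (95% interval 4.36 to 1079), which covers counting error only. Cyp2s1, an extrahepatic P450, was at 0.679 ± 0.307 CPM at 10 µg/kg against 0.656 ± 0.694 CPM in vehicle livers and was not called (adjusted p = 0.986).

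**Figure D1:**
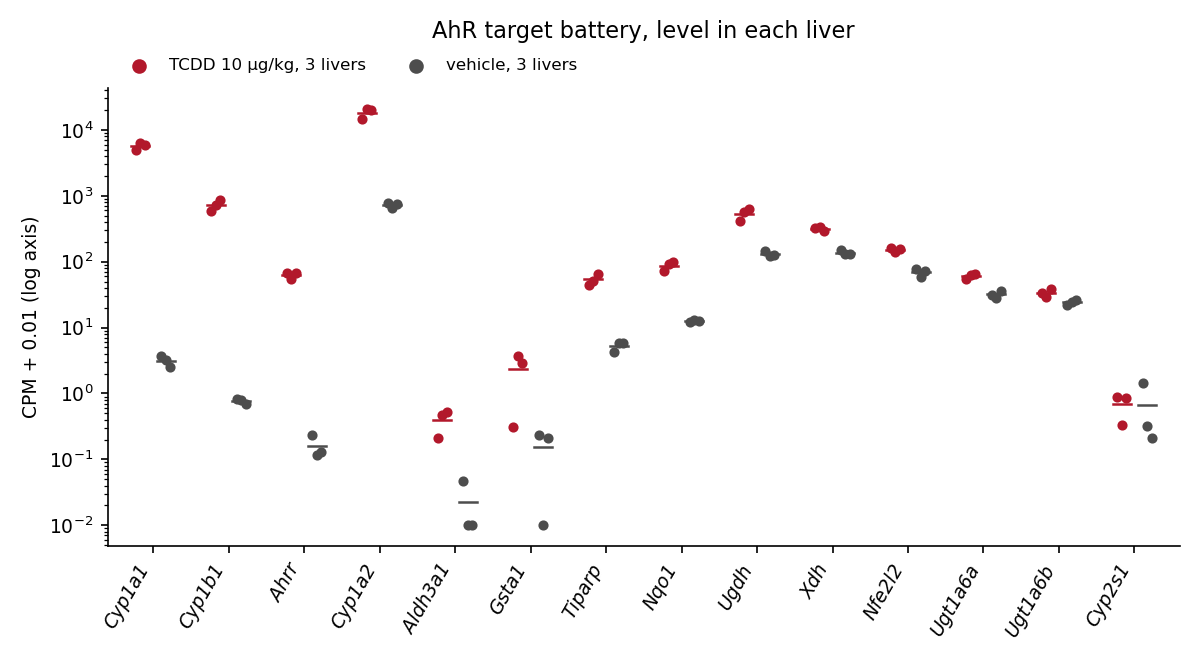
Level of each AhR battery gene in each liver, in CPM plus 0.01 on a log axis, with the 3 livers at 10 µg/kg left of the 3 vehicle livers for each gene and lines at the means. Cyp1a1, Cyp1b1 and Ahrr show the widest gaps between groups, and Cyp2s1 and Ugt1a6b the narrowest.

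The receptor and its partners gave no call in either direction: 0 of 6 tested genes were called by edgeR or by DESeq2, and 1 had an unadjusted p below 0.05. Ahr itself measured 48.3, 28.1 and 45.2 CPM at 10 µg/kg, against 43.5, 60.1 and 41.1 CPM in vehicle livers (adjusted p = 0.399), and the groups overlapped. Arnt measured 35.3, 39.1 and 37.3 CPM in the 10 µg/kg livers, against 42.5, 45.0 and 51.7 CPM in the vehicle livers (log2 fold change -0.32, SE 0.13, adjusted p = 0.0889). All 3 values at 10 µg/kg lay below all 3 vehicle values, but the difference missed the threshold. Hsp90ab1, the most abundant chaperone of the complex, was at 897 ± 167 CPM at 10 µg/kg against 899.7 ± 177 CPM in vehicle livers (adjusted p = 0.993).

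Across the transcriptome 1713 genes were called higher and 1689 lower at 10 µg/kg, and the total of 3402 was 2162 without the third vehicle liver. The share of calls that were higher depended on the scaling: 50.4% with TMM, 61.6% with RLE factors, 62.2% with upper-quartile factors and 60.4% with DESeq2. Rises reached further than falls. More than 4-fold differences were fitted for 472 of the genes called higher and 185 of those called lower, and more than 10-fold differences for 194 and 66. Of all called genes, 3191 are annotated as protein coding. All 3 livers at 10 µg/kg lay above all 3 vehicle livers for 3133 genes (20.7%) and below them for 3505 (23.2%). Of the 3402 called genes 3320 had no overlap between the groups, so separate groups add little to a call. The largest rises and falls were taken only from genes without overlap, so their separation was fixed by that choice.

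Several of the 15 largest rises were of genes with no read at all in the vehicle livers. Pnliprp1, a lipase-related protein of the exocrine pancreas, measured 26, 79.2 and 35.9 CPM at 10 µg/kg, against 0, 0 and 0 CPM in vehicle livers, which is at least 363-fold higher when each vehicle library is set to a floor of 3 counts. Hmx1, a homeobox factor of sensory development, measured 5.11, 12 and 17.5 CPM in the 10 µg/kg livers, against 0, 0 and 0 CPM in the vehicle livers, at least 88.9-fold higher. Ovol1, a zinc finger factor of epidermal differentiation, measured 11.5, 9.83 and 9.37 CPM at 10 µg/kg, against 0, 0 and 0 CPM in vehicle livers, at least 78.9-fold higher. These 3 genes were called in all 3 cases (adjusted p = 6.49e-08, 0.00165 and 1.69e-09). Ecel1, a neuronal metallopeptidase, measured 7.28, 9.79 and 12.5 CPM in the 10 µg/kg livers, against 0, 0 and 0 CPM in the vehicle livers (at least 75.9-fold higher, adjusted p = 7.52e-10). Mmp7, the matrix protease matrilysin of epithelia, measured 2.54, 3.90 and 4.81 CPM at 10 µg/kg, against 0, 0 and 0 CPM in vehicle livers (at least 28.9-fold higher, adjusted p = 7.90e-06), and 11.5% of its exonic length is overlapped by a gene on the other strand. Trim15, a ubiquitin ligase of focal adhesions, measured 2.94, 3.06 and 1.52 CPM in the 10 µg/kg livers, against 0, 0 and 0 CPM in the vehicle livers (at least 19.3-fold higher, adjusted p = 2.16e-06).

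Other large rises came from a few reads in the vehicle livers. Col9a2, a chain of the cartilage collagen type IX (chr4:121039385-121055322, plus strand), measured 125, 211 and 242 CPM at 10 µg/kg, against 0, 0.0523 and 0.0803 CPM in vehicle livers. The vehicle livers held 3 reads together, and the pooled ratio of the groups was 4407 (95% interval 1508 to 21374), covering counting error only (adjusted p = 2.16e-15). Gpx2, the glutathione peroxidase of the gut lining, measured 6.35, 13.3 and 20.6 CPM in the 10 µg/kg livers, against 0, 0.0523 and 0 CPM in the vehicle livers, with a pooled ratio of 909 (95% interval 162.8 to 35947) and an adjusted p = 1.60e-07. Both genes were close to absent from the vehicle livers. Nptx1, a pentraxin secreted by neurons, measured 217, 151 and 234 CPM at 10 µg/kg, against 0.560, 0.418 and 0.281 CPM in vehicle livers (log2 fold change 8.87, SE 0.40, adjusted p = 2.37e-14). Fabp12, a fatty acid binding protein, measured 26.6, 19.4 and 28.8 CPM in the 10 µg/kg livers, against 0.0373, 0.209 and 0.241 CPM in the vehicle livers (log2 fold change 7.27, SE 0.55, adjusted p = 7.52e-10). In each of these 4 genes the groups were far apart, and liver 3 at 10 µg/kg was the highest. Gpnmb, a glycoprotein of lipid-laden macrophages, measured 19.7, 20.6 and 58.4 CPM at 10 µg/kg, against 0.224, 0.0523 and 0.281 CPM in vehicle livers (log2 fold change 7.35, SE 0.98, adjusted p = 1.74e-05), with the third liver well above the other two.

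The 15 largest falls were of genes of varied function. Hao1, the peroxisomal glycolate oxidase (chr2:134497361-134554368, minus strand), measured 0, 0.0928 and 0.127 CPM in the 10 µg/kg livers, against 112, 193 and 175 CPM in the vehicle livers (log2 fold change -11.10, SE 0.48, adjusted p = 6.49e-15). It ranked 13159 of 13250 genes per length at 10 µg/kg against 587 in the vehicle group. Slco1a1, a sinusoidal importer of organic anions that is higher in males than in females in mice, measured 0.768, 0.232 and 0.127 CPM at 10 µg/kg, against 55.0, 100.04 and 42.7 CPM in vehicle livers (log2 fold change -7.33, SE 1.12, adjusted p = 9.62e-05). Mup3, a major urinary protein that carries pheromones, measured 73.3, 73.3 and 52.2 CPM in the 10 µg/kg livers, against 2313, 3133 and 2704 CPM in the vehicle livers (log2 fold change -5.36, SE 0.61, adjusted p = 1.17e-06). It ranked 548 per length at 10 µg/kg against 16 in the vehicle group. Reads of near-identical major urinary protein genes may be split among them.

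A cluster of sulfotransferases was among the largest falls. Sult3a1 measured 1.77, 0.139 and 0.337 CPM at 10 µg/kg, against 101, 274 and 142 CPM in vehicle livers (log2 fold change -7.72, SE 1.15, adjusted p = 7.05e-05). Sult3a2 had no read at 10 µg/kg and 5.60, 24 and 7.50 CPM in the vehicle livers, at least 101-fold lower (adjusted p = 3.45e-04). These 2 genes are near-identical copies, and their separate values are uncertain. Sult2a7, of the hydroxysteroid sulfotransferase family, measured 0.0668, 0.325 and 0.253 CPM in the 10 µg/kg livers, against 11.3, 23.2 and 17.6 CPM in the vehicle livers (log2 fold change -6.38, SE 0.94, adjusted p = 4.62e-05). In all 3 genes the second vehicle liver was the highest, and no liver at 10 µg/kg came near the lowest vehicle value.

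Other falls touched signalling and protease inhibition. Adrb3, the adrenergic receptor best known from fat cells, measured 0.167, 0.0464 and 0 CPM at 10 µg/kg, against 6.98, 8.05 and 5.90 CPM in vehicle livers (log2 fold change -6.36, SE 0.55, adjusted p = 3.22e-09). Serpinb1a, an inhibitor of neutrophil serine proteases, measured 0.702, 0.835 and 0.970 CPM in the 10 µg/kg livers, against 24.2, 16.4 and 31.5 CPM in the vehicle livers (log2 fold change -4.85, SE 0.43, adjusted p = 1.75e-08). Susd4, a regulator of complement, measured 0.10, 0.186 and 0.0844 CPM at 10 µg/kg, against 5.52, 6.17 and 4.62 CPM in vehicle livers (log2 fold change -5.43, SE 0.51, adjusted p = 1.36e-08). All 3 genes lay under 1 CPM in every 10 µg/kg liver and above 4 CPM in every vehicle liver. Mmd2, a membrane protein of the progestin and adipoQ receptor family, measured 0.167, 0.278 and 0.0422 CPM in the 10 µg/kg livers, against 11.6, 16.1 and 13.4 CPM in the vehicle livers (log2 fold change -6.36, SE 0.77, adjusted p = 3.60e-06). Ube2u, a ubiquitin-conjugating enzyme, had no read at 10 µg/kg and 3.06, 4.18 and 3.97 CPM in the vehicle livers, at least 30.6-fold lower (adjusted p = 1.16e-08). Serpina4-ps1, an annotated pseudogene, and Hsd3b5, a steroid reductase, completed the largest falls. Serpina4-ps1 measured 0.267, 0.0464 and 0 CPM at 10 µg/kg, against 8.28, 28.1 and 9.23 CPM in vehicle livers (log2 fold change -6.94, SE 1.19, adjusted p = 2.75e-04). Hsd3b5 measured 0.0668, 0 and 0 CPM in the 10 µg/kg livers, against 1.42, 4.86 and 0.161 CPM in the vehicle livers (adjusted p = 6.58e-04). It had 1 read in all at 10 µg/kg, its vehicle livers spanned a wide range, and the pooled ratio of vehicle over 10 µg/kg was 71.6 (95% interval 19.5 to 598).

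**Figure D2:**
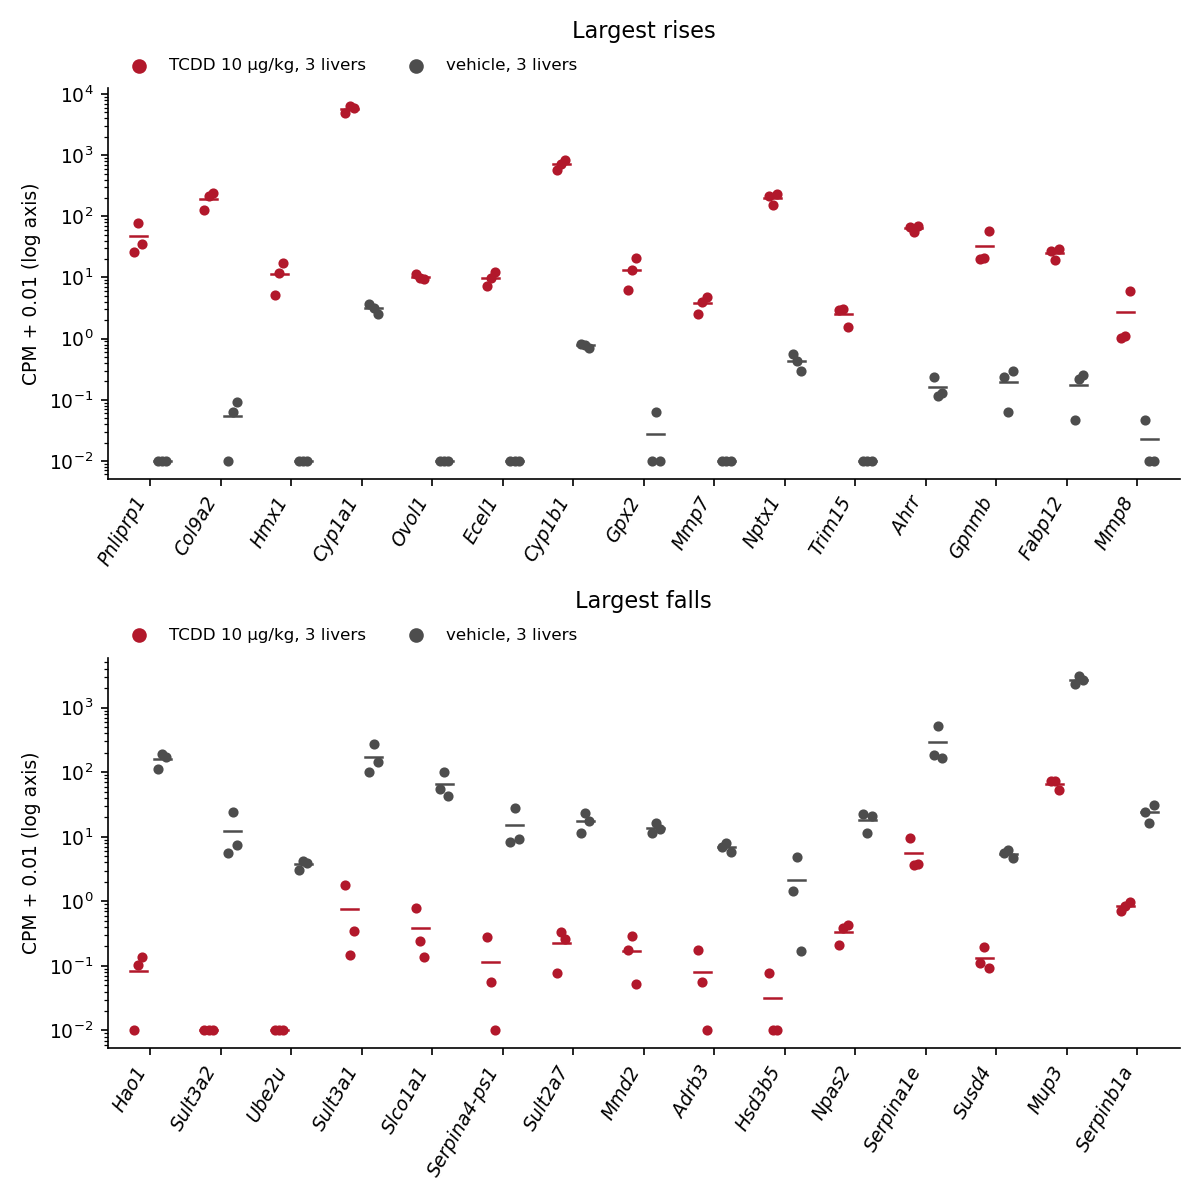
Per-liver levels, in CPM plus 0.01 on a log axis, of the 15 genes with the largest fitted rises and the 15 with the largest falls at 10 µg/kg, with the 10 µg/kg livers left of the vehicle livers and lines at the means. The points at the bottom of the axis are livers with 0 reads, as for Ecel1 in the vehicle livers and Sult3a2 in the 10 µg/kg livers.

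**Figure D3:**
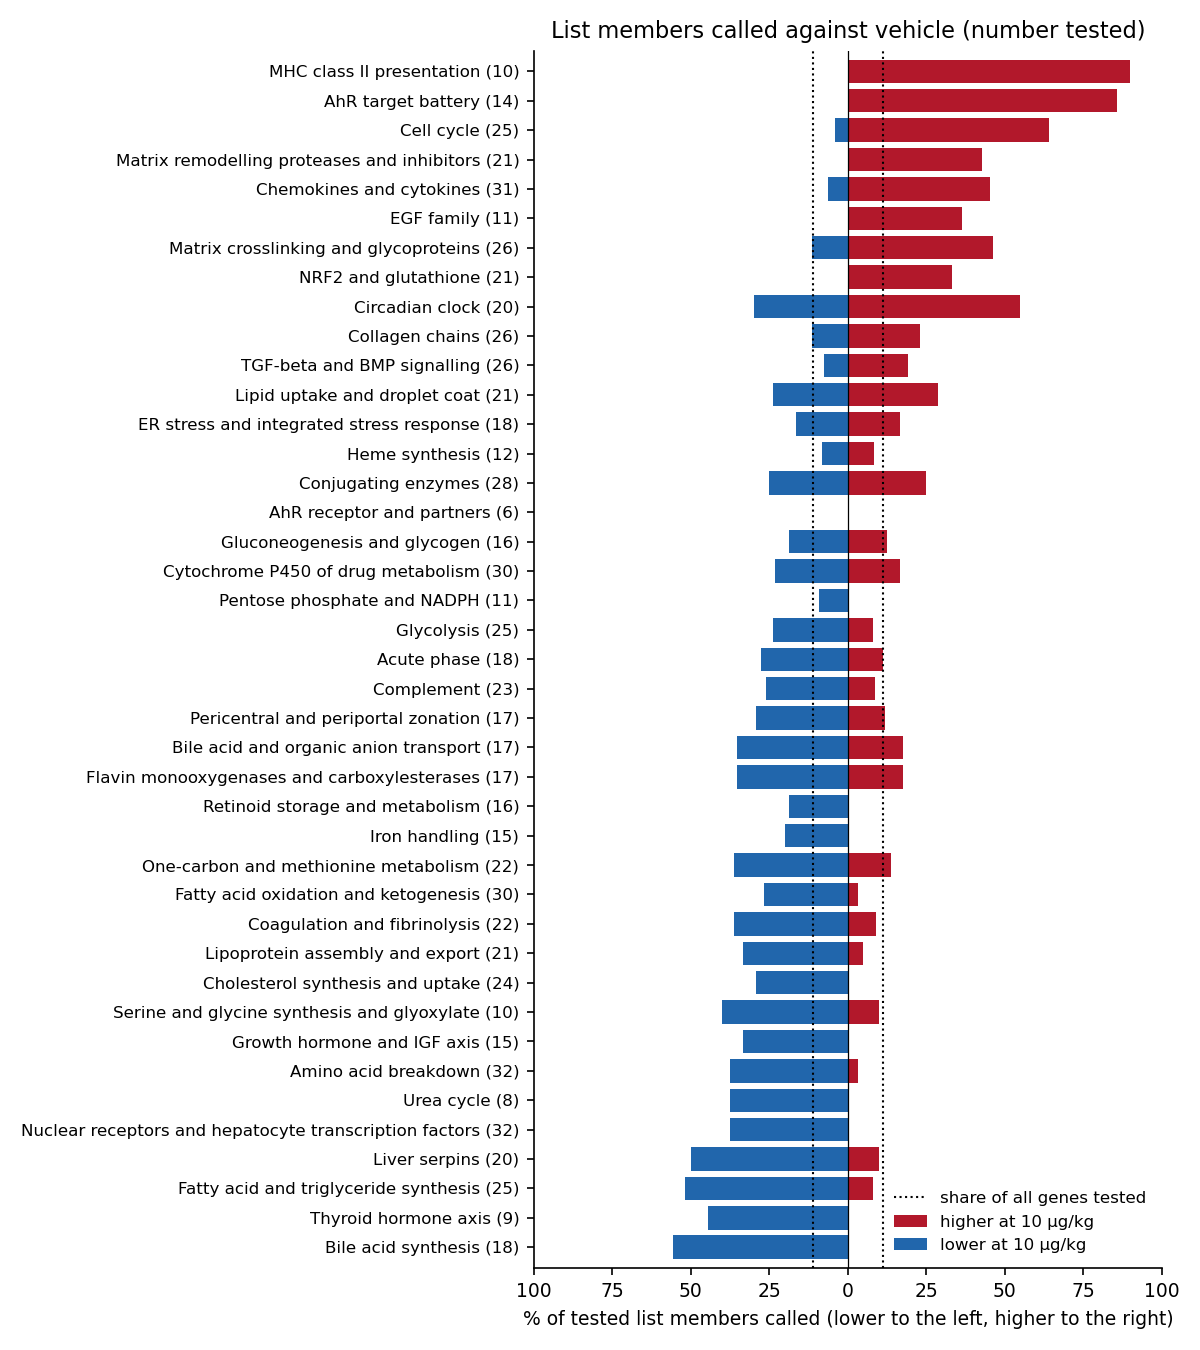
Members called higher and called lower at 10 µg/kg against vehicle in each pathway list, as a percent of the members tested, with dotted lines at the 11.3% of all genes called higher and the 11.2% called lower. The AhR battery, MHC class II and cell cycle lists lie mainly on the higher side, and the bile acid synthesis, fatty acid synthesis and amino acid breakdown lists on the lower side. The clock list, with 11 of 20 called higher and 6 lower, passes the dotted line on both sides.

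The NRF2 and glutathione genes, which answer to electrophiles and are a second layer of defence beside the AhR battery, moved upward or missed the threshold: 7 of 21 tested members were called higher and 0 lower. Gstm3, a glutathione transferase, measured 254, 618 and 395 CPM at 10 µg/kg, against 35.3, 35.8 and 36.6 CPM in vehicle livers (log2 fold change 3.56, SE 0.53, adjusted p = 4.74e-05). Cbr3, a carbonyl reductase, measured 1.47, 4.87 and 7.97 CPM in the 10 µg/kg livers, against 0.597, 0.523 and 0.602 CPM in the vehicle livers (log2 fold change 3.02, SE 0.55, adjusted p = 3.26e-04). Abcc4, an exporter of conjugates on the blood side of the hepatocyte, measured 17.1, 29.6 and 38.3 CPM at 10 µg/kg, against 3.73, 3.14 and 2.37 CPM in vehicle livers (log2 fold change 3.20, SE 0.45, adjusted p = 2.35e-05). All 3 were higher in every 10 µg/kg liver. Gclc, the catalytic subunit of glutathione synthesis, was at 343 ± 94.6 CPM at 10 µg/kg against 372 ± 104 CPM in vehicle livers (adjusted p = 0.796). The abundant transferase Gstm1 was at 1396 ± 432 CPM at 10 µg/kg against 1318 ± 247 CPM in vehicle livers (adjusted p = 0.875).

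Drug-metabolising P450 genes outside the AhR battery moved both ways, with 5 of 30 called higher and 7 lower. Of all genes 11.3% were called higher and 11.2% lower. Cyp2a5, the coumarin hydroxylase, rose to 941 ± 90.9 CPM at 10 µg/kg against 139 ± 27.9 CPM in vehicle livers (SD, n = 3 each), a log2 change of 2.76 (SE 0.37, adjusted p = 4.73e-06). Cyp2d9, a steroid hydroxylase, rose with 2.84 (SE 0.35, adjusted p = 1.77e-06). Cyp2c70, which makes muricholic acids in mice, fell to 184 ± 56.6 CPM at 10 µg/kg against 536 ± 82.1 CPM in vehicle livers, with -1.54 (SE 0.26, adjusted p = 1.11e-04). Of the major hepatic forms, Cyp3a11 was at 3565 ± 1096 CPM at 10 µg/kg against 3027 ± 248 CPM in vehicle livers and was not called (adjusted p = 0.535). Cyp2e1 was at 6922 ± 579 CPM at 10 µg/kg against 7400.3 ± 795 CPM in vehicle livers and was not called (adjusted p = 0.837). Counts of these close families may be split between copies. Leaving out 1 library moved the count of higher members to 3 without the second 10 µg/kg liver or the second or the third vehicle liver, and that of lower members to 2 without the second 10 µg/kg liver, 3 without the first or the third vehicle liver and 4 without the third 10 µg/kg liver or the second vehicle liver.

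Other phase I and II enzymes also moved both ways. Of 28 further conjugating enzymes 7 were called higher and 7 lower. Nat8, an N-acetyltransferase of cysteine conjugates, measured 11.6, 13.8 and 11.6 CPM in the 10 µg/kg livers, against 1.19, 0.889 and 0.843 CPM in the vehicle livers (log2 fold change 3.64, SE 0.46, adjusted p = 2.04e-06). Sult5a1, a sulfotransferase, measured 283, 232 and 230.3 CPM at 10 µg/kg, against 36.7, 29.3 and 13.3 CPM in vehicle livers (log2 fold change 3.23, SE 0.40, adjusted p = 3.36e-06). Of 17 flavin monooxygenases and carboxylesterases 3 were called higher and 6 lower. The carboxylesterase Ces1d, which also acts on stored triglyceride, fell to 206 ± 22.4 CPM at 10 µg/kg against 929 ± 195 CPM in vehicle livers (log2 fold change -2.17, SE 0.32, adjusted p = 1.58e-05). Ces2a fell to 100.4 ± 14.3 CPM at 10 µg/kg against 312 ± 39.9 CPM in vehicle livers (log2 fold change -1.64, SE 0.30, adjusted p = 3.14e-04). Both groups of values were separate in each of these genes.

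The factors that set hepatocyte expression were lower where they moved. Of 32 nuclear receptors and hepatocyte transcription factors 0 were called higher and 12 lower. Foxa3, a pioneer factor of liver genes, fell to 29.5 ± 6.87 CPM at 10 µg/kg against 95.3 ± 25.5 CPM in vehicle livers (log2 fold change -1.69, SE 0.35, adjusted p = 0.00133). Mlxipl, which encodes the glucose-sensing factor ChREBP, fell to 218 ± 8.0 CPM at 10 µg/kg against 449.9 ± 70.6 CPM in vehicle livers (log2 fold change -1.04, SE 0.18, adjusted p = 9.48e-05). Hnf4a, the central hepatocyte receptor, was at 564 ± 40.2 CPM at 10 µg/kg against 650.3 ± 38.5 CPM in vehicle livers (adjusted p = 0.470). The count of lower members was 8 with RLE factors. It was 6 without the third 10 µg/kg liver or the second vehicle liver and 7 without the third vehicle liver.

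Bile acid synthesis genes were lower where called. Of 18 tested genes listed for the path from cholesterol to conjugated bile acids, 0 were called higher and 10 lower, with a median log2 fold change of -0.77. The lower genes included steps of the nucleus, the side chain and the conjugation: Hsd3b7, Akr1d1, Cyp27a1, Slc27a5 and Baat among them. Acnat2, an acyl-CoA amino acid transferase, measured 3.91, 3.39 and 3.59 CPM in the 10 µg/kg livers, against 49.7, 108 and 55.4 CPM in the vehicle livers (log2 fold change -4.28, SE 0.53, adjusted p = 5.02e-06), the widest gap of the list. Hsd3b7, which acts early on the nucleus, measured 493, 315 and 424 CPM at 10 µg/kg, against 960.4, 896 and 1000.0 CPM in vehicle livers (log2 fold change -1.21, SE 0.18, adjusted p = 1.74e-05). Cyp8b1, which makes cholic acid, fell by the main test (log2 fold change -1.17, SE 0.37, adjusted p = 0.0251), but the call ended without the second 10 µg/kg liver or the first or the third vehicle liver (highest adjusted p 0.124). Scp2, a carrier of the side chain step, was at 917 ± 93.7 CPM at 10 µg/kg against 764 ± 154 CPM in vehicle livers (adjusted p = 0.371). The higher count was 1 without the third 10 µg/kg liver, and 1 with RLE factors.

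Transporters of bile acids and organic anions split, with 3 of 17 called higher and 6 lower, but 4 higher and 3 lower with RLE or upper-quartile factors, so no direction holds for the list. Leaving out 1 library gave lower counts of 2 without the third 10 µg/kg liver and 3 without the second 10 µg/kg liver or any 1 of the vehicle livers. Slc22a7, an organic anion importer, measured 72.7, 62.4 and 62.6 CPM in the 10 µg/kg livers, against 14, 27.2 and 16.9 CPM in the vehicle livers (log2 fold change 1.77, SE 0.39, adjusted p = 0.00214), with separate groups. Abcc2, the canalicular exporter of conjugates, was at 638 ± 26.1 CPM at 10 µg/kg against 599 ± 12.9 CPM in vehicle livers (adjusted p = 0.750).

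Genes that make fatty acids and triglycerides were mostly lower where called. Of 25 tested members 13 were called lower and 2 higher, with a median log2 fold change of -0.68. Fasn, the fatty acid synthase, measured 131, 129 and 92.4 CPM at 10 µg/kg, against 323, 637 and 432 CPM in vehicle livers (log2 fold change -1.98, SE 0.37, adjusted p = 3.72e-04). Agpat2, which adds the second acyl chain to glycerol phosphate, measured 50.5, 60.9 and 53.6 CPM in the 10 µg/kg livers, against 238, 227 and 262 CPM in the vehicle livers (log2 fold change -2.14, SE 0.19, adjusted p = 5.57e-09). Acly, Acaca, Fads1, Fads2, Elovl2 and Elovl6 were among the other lower members. Lpin2, a phosphatidate phosphatase, went the other way and measured 439.7, 461 and 503 CPM at 10 µg/kg, against 189.8, 128 and 128 CPM in vehicle livers (log2 fold change 1.65, SE 0.26, adjusted p = 4.31e-05). Scd1, the abundant desaturase, was at 6918 ± 3405 CPM at 10 µg/kg against 14200.3 ± 2239 CPM in vehicle livers and was not called (adjusted p = 0.0713). The count of lower members was 8 without the third 10 µg/kg liver, and that of higher members 1 without the second 10 µg/kg liver or any 1 of the vehicle livers.

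Fatty acid oxidation genes were mostly lower where called, with 8 of 30 lower and 1 higher (5 lower and 2 higher with RLE factors). Cyp4a14, an omega-hydroxylase of fatty acids, measured 197, 103 and 404 CPM in the 10 µg/kg livers, against 1704, 1739.7 and 1783 CPM in the vehicle livers (log2 fold change -2.89, SE 0.91, adjusted p = 0.0280), and its call ended without the first or the second 10 µg/kg liver or any 1 of the vehicle livers (highest adjusted p 0.115). Ehhadh, a peroxisomal enzyme of fatty acid breakdown, was at 472 ± 119 CPM at 10 µg/kg against 684 ± 36.4 CPM in vehicle livers and was not called (adjusted p = 0.228). The count of lower members was 2 without the second 10 µg/kg liver, 3 without the first 10 µg/kg liver or any 1 of the vehicle livers and 5 without the third 10 µg/kg liver, and that of higher members 0 without the first 10 µg/kg liver or any 1 of the vehicle livers and 2 without the second 10 µg/kg liver. The single higher member was Fgf21, the fasting hormone (log2 fold change 2.90, SE 0.88, adjusted p = 0.0225), and that call ended without the first 10 µg/kg liver or any 1 of the vehicle livers (highest adjusted p 0.0858).

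The genes of lipid uptake and storage moved in both directions, with 6 of 21 called higher and 5 lower. Cd36, a fatty acid importer, measured 343, 363 and 454 CPM at 10 µg/kg, against 38.5, 60.8 and 78.5 CPM in vehicle livers (log2 fold change 2.70, SE 0.26, adjusted p = 2.39e-08). Lpl, the lipoprotein lipase that adult hepatocytes barely make, measured 119, 119 and 133 CPM in the 10 µg/kg livers, against 15.9, 16.9 and 20.6 CPM in the vehicle livers (log2 fold change 2.80, SE 0.46, adjusted p = 1.41e-04). Neither gene's groups overlapped. Pnpla3, a triglyceride hydrolase of lipid droplets, measured 0.234, 0.603 and 0.211 CPM at 10 µg/kg, against 5.30, 6.01 and 4.01 CPM in vehicle livers (log2 fold change -3.89, SE 0.86, adjusted p = 0.00252). Plin4, a droplet coat protein, measured 1.84, 0.742 and 0.844 CPM in the 10 µg/kg livers, against 8.92, 5.54 and 7.91 CPM in the vehicle livers (log2 fold change -2.67, SE 0.52, adjusted p = 6.41e-04). Plin2, the main droplet coat of hepatocytes, was at 655 ± 199 CPM at 10 µg/kg against 808 ± 97.6 CPM in vehicle livers (adjusted p = 0.572). The count of lower members was 3 without the second or the third 10 µg/kg liver or any 1 of the vehicle livers.

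Lipoprotein genes were called lower for 7 of 21 members and higher for 1 (3 lower with RLE factors). Apoa1, the core protein of HDL, measured 4688, 2165.6 and 3776 CPM at 10 µg/kg, against 8964, 11552 and 15851 CPM in vehicle livers (log2 fold change -1.77, SE 0.35, adjusted p = 5.51e-04). Lipg, an endothelial lipase, measured 44, 37.2 and 36.9 CPM in the 10 µg/kg livers, against 11, 21.4 and 13.9 CPM in the vehicle livers (log2 fold change 1.36, SE 0.35, adjusted p = 0.00765). The count of lower members was 2 without the third 10 µg/kg liver and 3 without the first 10 µg/kg liver or the second or the third vehicle liver. Of 24 genes of cholesterol synthesis and uptake 7 were called lower and 0 higher (4 lower with RLE factors). Insig2, which holds the sterol sensor in the endoplasmic reticulum, measured 82.2, 61.9 and 113 CPM at 10 µg/kg, against 324, 418 and 379.6 CPM in vehicle livers (log2 fold change -2.13, SE 0.30, adjusted p = 1.04e-05), with widely separate groups. Pmvk, a kinase of the mevalonate path, fell to 30.1 ± 0.439 CPM at 10 µg/kg against 66.1 ± 8.87 CPM in vehicle livers (log2 fold change -1.13, SE 0.26, adjusted p = 0.00238). The count of lower cholesterol genes was 3 without the third 10 µg/kg liver and 4 without the second 10 µg/kg liver or the second or the third vehicle liver.

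Amino acid breakdown genes were lower where called, with 1 exception. Of 32 enzymes 12 were called lower, 1 higher and 19 in neither direction, and the lower count was 7 without the third 10 µg/kg liver. Afmid, which makes kynurenine from formylkynurenine, fell to 11.5 ± 1.98 CPM at 10 µg/kg against 67.8 ± 6.83 CPM in vehicle livers (log2 fold change -2.55, SE 0.34, adjusted p = 6.12e-06), although 44% of its exonic length is shared with another gene on the same strand. Acmsd, the branch point that steers tryptophan away from NAD, fell to 6.80 ± 1.49 CPM at 10 µg/kg against 21.5 ± 0.847 CPM in vehicle livers (log2 fold change -1.67, SE 0.28, adjusted p = 9.04e-05). Tdo2, the first enzyme of the same path, was the member called higher. Amdhd1, of histidine breakdown, fell to 123 ± 16.8 CPM at 10 µg/kg against 299 ± 33.1 CPM in vehicle livers (log2 fold change -1.28, SE 0.23, adjusted p = 1.63e-04).

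In the urea cycle 3 of 8 members were called lower and 0 higher, and the lower count was 1 without the third 10 µg/kg liver. Otc, the mitochondrial ornithine transcarbamylase, measured 170.0, 221 and 171 CPM in the 10 µg/kg livers, against 418, 444 and 499 CPM in the vehicle livers (log2 fold change -1.28, SE 0.22, adjusted p = 1.46e-04), with all 10 µg/kg livers below the vehicle livers. Arg1, which releases urea, was at 1345 ± 229 CPM at 10 µg/kg against 1165 ± 62.6 CPM in vehicle livers (adjusted p = 0.469).

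One-carbon and methionine genes were called lower more often than higher, with 8 of 22 called lower and 3 higher. Gldc, the glycine decarboxylase, measured 57.4, 58.1 and 62.1 CPM at 10 µg/kg, against 274, 256 and 270.4 CPM in vehicle livers (log2 fold change -2.17, SE 0.19, adjusted p = 2.73e-09). Bhmt, which remethylates homocysteine with betaine and is one of the most abundant liver enzymes, measured 164, 203 and 129 CPM in the 10 µg/kg livers, against 378, 886 and 607 CPM in the vehicle livers (log2 fold change -1.92, SE 0.37, adjusted p = 5.92e-04). Both were lower in every 10 µg/kg liver. Mthfd2, a mitochondrial folate enzyme seen in growing cells, rose by the main test (log2 fold change 1.33, SE 0.44, adjusted p = 0.0318), but not without the first or the third 10 µg/kg liver or any 1 of the vehicle livers (highest adjusted p 0.123). The count of higher members was 0 without the first 10 µg/kg liver or the second or the third vehicle liver and 1 without the second 10 µg/kg liver or the first vehicle liver.

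Of 10 serine and glyoxylate genes 4 were called lower, Hao1 among them, and 1 higher. Psat1, of serine synthesis, measured 3.91, 1.90 and 1.05 CPM at 10 µg/kg, against 0.410, 0.314 and 0.361 CPM in vehicle livers (log2 fold change 2.64, SE 0.65, adjusted p = 0.00446). Prodh2, which feeds glyoxylate from hydroxyproline, fell to 122 ± 10.7 CPM at 10 µg/kg against 268 ± 19.6 CPM in vehicle livers (log2 fold change -1.13, SE 0.30, adjusted p = 0.00701). Agxt, which detoxifies glyoxylate, was at 335 ± 37.6 CPM at 10 µg/kg against 450.01 ± 33.2 CPM in vehicle livers (adjusted p = 0.342).

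Glycolysis genes were called in both directions. Of 25 members 2 were called higher and 6 lower, beside 11.3% and 11.2% of all genes. The higher count lay below the share of all genes. Pklr, the liver form of pyruvate kinase, measured 71.2, 83.8 and 39.3 CPM in the 10 µg/kg livers, against 271, 241 and 239.5 CPM in the vehicle livers (log2 fold change -1.95, SE 0.30, adjusted p = 3.62e-05), and 22% of its exonic length is overlapped on the other strand. Pkm, the form of muscle and growing cells, measured 28, 28.7 and 31.9 CPM at 10 µg/kg, against 10.9, 6.33 and 8.83 CPM in vehicle livers (log2 fold change 1.76, SE 0.25, adjusted p = 1.32e-05). The groups did not overlap for either gene, and they moved in opposite directions. Of 16 gluconeogenesis and glycogen genes 2 were called higher and 3 lower, with a median log2 fold change of -0.27. Neither count lay far from the share of all genes. The higher count was 1 without the second vehicle liver. The 3 lower members were Ppp1r3c and Ppp1r3b, which bring protein phosphatase 1 to glycogen, and Pygl, the liver glycogen phosphorylase. Ppp1r3c measured 24.5, 26.4 and 38.1 CPM in the 10 µg/kg livers, against 136, 139 and 231 CPM in the vehicle livers (log2 fold change -2.50, SE 0.30, adjusted p = 1.22e-06). Ppp1r3b measured 62.3, 42.4 and 43.3 CPM at 10 µg/kg, against 167, 441 and 202 CPM in vehicle livers (log2 fold change -2.45, SE 0.33, adjusted p = 6.43e-06). Pygl fell to 285 ± 45.3 CPM at 10 µg/kg against 448 ± 15.7 CPM in vehicle livers (log2 fold change -0.65, SE 0.20, adjusted p = 0.0220), and that call ended without the third 10 µg/kg liver or any 1 of the vehicle livers (highest adjusted p 0.157). Of the 2 higher members, Gyg, the glycogen primer, rose to 10.9 ± 0.712 CPM at 10 µg/kg against 6.35 ± 0.385 CPM in vehicle livers (log2 fold change 0.77, SE 0.21, adjusted p = 0.00831). Fbp1, a phosphatase of gluconeogenesis, rose by 0.65 (SE 0.18, adjusted p = 0.0118) on the log2 scale, and it was the call that ended without the second vehicle liver. Fbp1 was named after its value was seen. Pck1, of gluconeogenesis, was at 1507 ± 104 CPM at 10 µg/kg against 1498 ± 369.6 CPM in vehicle livers (adjusted p = 0.993). Without the first 10 µg/kg liver the glycolysis list had 4 members called higher and 3 lower, and without the third it had 2 and 3.

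Iron and retinoid genes were called at a share near the 22.5% of all genes. Of 15 iron genes 3 were called lower and 0 higher, and the higher count was 1 without the first vehicle liver. Hamp, which encodes hepcidin, the hormone that closes iron export, measured 521, 615 and 456 CPM in the 10 µg/kg livers, against 1817, 667 and 1320.4 CPM in the vehicle livers (log2 fold change -1.26, SE 0.34, adjusted p = 0.00908), and this call ended without the third 10 µg/kg liver or the first vehicle liver (highest adjusted p 0.0881). Of 16 retinoid genes 3 were called lower and 0 higher (2 and 1 with RLE factors), and the higher count was 1 without the first or the second 10 µg/kg liver. Bco2, a carotenoid-cleaving enzyme, fell to 14.5 ± 1.90 CPM at 10 µg/kg against 30.8 ± 3.79 CPM in vehicle livers (log2 fold change -1.08, SE 0.19, adjusted p = 1.42e-04). Dhrs3, which turns retinal back to retinol, fell to 166 ± 27.2 CPM at 10 µg/kg against 338 ± 67 CPM in vehicle livers (log2 fold change -1.02, SE 0.18, adjusted p = 1.42e-04).

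A part of the growth hormone and thyroid genes was lower. In the growth hormone axis 5 of 15 members were called lower and 0 higher. Ghr, the growth hormone receptor, fell to 184 ± 14.5 CPM at 10 µg/kg against 357 ± 19 CPM in vehicle livers (log2 fold change -0.96, SE 0.19, adjusted p = 4.96e-04). Stat5a, which carries its signal, fell to 17 ± 0.844 CPM at 10 µg/kg against 35.1 ± 5.78 CPM in vehicle livers (log2 fold change -1.05, SE 0.23, adjusted p = 0.00146). Igfbp2, a carrier of insulin-like growth factors, measured 83.6, 74.9 and 136 CPM at 10 µg/kg, against 547, 519 and 520.2 CPM in vehicle livers (log2 fold change -2.43, SE 0.43, adjusted p = 2.78e-04). Igf1 itself was at 520.4 ± 10.1 CPM at 10 µg/kg against 651 ± 35.6 CPM in vehicle livers (adjusted p = 0.411). In the thyroid axis 4 of 9 members were called lower and 0 higher, and the receptor Thrb, named after its value was seen, was not called, with a log2 change of -0.38 (SE 0.16, adjusted p = 0.0947). Serpina7, thyroxine-binding globulin, measured 2.47, 1.90 and 2.19 CPM in the 10 µg/kg livers, against 40.03, 48.6 and 73.9 CPM in the vehicle livers (log2 fold change -4.62, SE 0.66, adjusted p = 4.00e-05), with a wide gap between groups. Dio1, the deiodinase, was at 93.2 ± 24.8 CPM at 10 µg/kg against 121 ± 23.7 CPM in vehicle livers (adjusted p = 0.551).

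Secreted plasma proteins were mostly lower where called. Of 14 proteins that hepatocytes secrete in bulk 6 were called lower and 0 higher, and Alb was not called (adjusted p = 0.266). Of 20 liver serpins 10 were called lower and 2 higher. Serpina1e, one of several near-identical antitrypsin genes, measured 9.45, 3.62 and 3.71 CPM at 10 µg/kg, against 187, 515 and 165 CPM in vehicle livers (log2 fold change -5.67, SE 1.1, adjusted p = 9.50e-04). Its copies Serpina1d and Serpina1b were not called (adjusted p = 0.850 and 0.879), and reads may be split among the copies. Serpina12, the adipokine vaspin, measured 1.0, 1.39 and 0.422 CPM in the 10 µg/kg livers, against 7.91, 12.2 and 8.83 CPM in the vehicle livers (log2 fold change -3.36, SE 0.77, adjusted p = 0.00320). Serpina1e and Serpina12 were lower in every 10 µg/kg liver than in any vehicle liver.

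All 3 fibrinogen chains fell. Fga measured 2926, 2244 and 2583 CPM at 10 µg/kg, against 5925, 6554 and 8979.8 CPM in vehicle livers (log2 fold change -1.47, SE 0.32, adjusted p = 0.00141). The changes of Fgb and Fgg on the log2 scale were -1.41 (SE 0.27, adjusted p = 3.53e-04) and -1.48 (SE 0.28, adjusted p = 4.22e-04). Of 22 coagulation genes 8 were called lower and 2 higher, but 5 and 5 with upper-quartile factors, so the direction of the list depends on scaling. Its lower count was 5 without the third 10 µg/kg liver or the first or the third vehicle liver. Plaur, the urokinase receptor of activated leukocytes, rose to 1.95 ± 0.107 CPM at 10 µg/kg against 0.495 ± 0.136 CPM in vehicle livers (log2 fold change 1.97, SE 0.52, adjusted p = 0.00698). Of 23 complement genes 6 were called lower and 2 higher, but 1 lower and 2 higher with upper-quartile factors. The higher count was 1 without the third 10 µg/kg liver or the third vehicle liver, and the lower count was 0 without the third 10 µg/kg liver or the third vehicle liver, 2 without the first 10 µg/kg liver or the first vehicle liver and 3 without the second 10 µg/kg liver or the second vehicle liver. C5ar1, the leukocyte receptor of C5a, rose to 7.78 ± 5.33 CPM at 10 µg/kg against 1.34 ± 0.155 CPM in vehicle livers (log2 fold change 2.54, SE 0.46, adjusted p = 2.35e-04). C3 was at 8769.9 ± 1470.2 CPM at 10 µg/kg against 11552 ± 946 CPM in vehicle livers (adjusted p = 0.196). Of 18 acute phase genes 5 were called lower and 2 higher, and the higher count lay near the 11.3% of all genes. Lbp, which presents bacterial lipopolysaccharide, fell to 39.8 ± 10.6 CPM at 10 µg/kg against 144 ± 7.85 CPM in vehicle livers (log2 fold change -1.85, SE 0.42, adjusted p = 0.00295). The higher count of the acute phase list was 1 without the second or the third 10 µg/kg liver or the second or the third vehicle liver, and its lower count was 2 without the second 10 µg/kg liver and 3 without the first or the third 10 µg/kg liver or the third vehicle liver.

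The circadian clock runs as a loop in which CLOCK, NPAS2 and ARNTL (BMAL1) drive the Period, Cryptochrome, REV-ERB and PAR bZIP genes, whose products then hold the drivers down. In nocturnal mice these arms peak at opposite times of day. Of 20 tested clock genes 11 were called higher and 6 lower, 17 of 20 in all. Dbp, a PAR bZIP output factor, measured 117, 152 and 111 CPM in the 10 µg/kg livers, against 0.970, 1.05 and 1.28 CPM in the vehicle livers (log2 fold change 6.84, SE 0.53, adjusted p = 5.14e-09), and 18% of its exonic length is overlapped on the other strand. Bhlhe41, a repressor of the loop, measured 11.6, 13.9 and 14.9 CPM at 10 µg/kg, against 0.298, 0.157 and 0.201 CPM in vehicle livers (log2 fold change 5.87, SE 0.42, adjusted p = 1.08e-10). Ciart, another repressor, measured 16.4, 19.1 and 8.02 CPM in the 10 µg/kg livers, against 0.112, 0.471 and 0.201 CPM in the vehicle livers (log2 fold change 5.86, SE 0.82, adjusted p = 2.35e-05). In the opposite direction Npas2 measured 0.200, 0.371 and 0.422 CPM at 10 µg/kg, against 22.2, 11.6 and 20.9 CPM in vehicle livers (log2 fold change -5.79, SE 0.61, adjusted p = 2.63e-07). For these 4 genes the groups were more than 10-fold apart in every pair of livers.

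The same opposition ran through further members, which were chosen after their values were seen. Per3, a Period gene, measured 41, 58.6 and 42.4 CPM in the 10 µg/kg livers, against 1.68, 1.67 and 1.24 CPM in the vehicle livers, with a log2 change of 4.95 (SE 0.46, adjusted p = 6.68e-08). Arntl measured 1.07, 0.974 and 1.48 CPM in the 10 µg/kg livers, against 33.9, 28.6 and 34.2 CPM in the vehicle livers, with -4.77 (SE 0.56, adjusted p = 2.08e-06). Nfil3, which opposes the PAR bZIP factors, changed by -3.12 (SE 0.28, adjusted p = 1.04e-08), Cry1 by -2.30 (SE 0.30, adjusted p = 2.12e-06) and Nr1d1, which encodes REV-ERBα, by 1.51 (SE 0.23, adjusted p = 2.97e-05). Hlf and Rora were not called, with log2 fold changes of 0.45 (adjusted p = 0.115) and -0.40 (adjusted p = 0.257).

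For Npas2 and Dbp the livers at 0.3, 3 and 30 µg/kg lay on the same side of the vehicle livers as those at 10 µg/kg. Npas2 averaged 18.2 ± 5.82 CPM in vehicle livers, 0.660 ± 1.03 at 0.3 µg/kg, 0.216 ± 0.0802 at 3 µg/kg, 0.331 ± 0.116 at 10 µg/kg and 0.574 ± 0.459 at 30 µg/kg. Dbp averaged 1.1 ± 0.164 CPM in vehicle livers, 127 ± 56.7 at 0.3 µg/kg, 187 ± 10.9 at 3 µg/kg, 127 ± 22.1 at 10 µg/kg and 52.0 ± 32.6 at 30 µg/kg. Not every clock gene kept its side at every dose. Bhlhe40, picked after its values were seen, averaged 38.0 ± 2.44 CPM in vehicle livers, 63.1 ± 13.5 at 10 µg/kg and 28.1 ± 7.54 at 30 µg/kg. In the direct test of 10 against 0.3 µg/kg, 13.3% of all genes were called (6.96% higher, 6.37% lower) but only 1 clock gene, and that was lower. The hour of collection is not given in the sources used here, and its part in the result was not tested. One of the 0.3 µg/kg libraries held 434011 reads, and its low values are coarse.

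**Figure D4:**
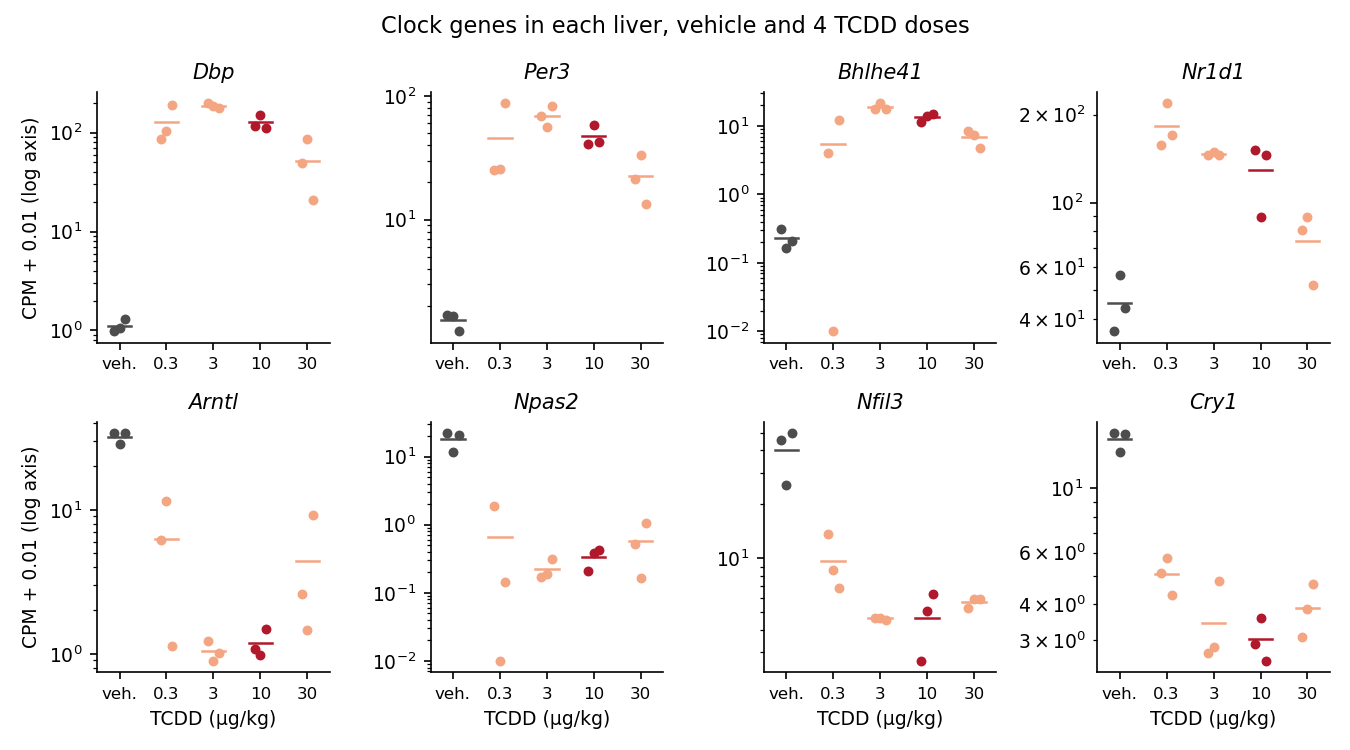
Level of 8 clock genes in each liver, in CPM plus 0.01 on a log axis, with lines at the means and dose in µg/kg from vehicle on the left through 0.3, 3 and 10 to 30 on the right. Dbp, Per3, Bhlhe41 and Nr1d1 are on average lowest in the vehicle livers, and Arntl, Npas2, Nfil3 and Cry1 are on average highest there.

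Extracellular matrix genes rose in part, but the summed level of the collagen list was lower. Of 26 collagen chains 6 were called higher and 3 lower. Summed over the list, the level was 1381, 1251 and 1517 CPM at 10 µg/kg, against 1728, 1661 and 1852 CPM in vehicle livers. Both chains of type I collagen, the fibrillar collagen of scars, rose. Col1a1 measured 41.1, 29.6 and 82.1 CPM in the 10 µg/kg livers, against 12.2, 7.79 and 14.6 CPM in the vehicle livers (log2 fold change 2.14, SE 0.47, adjusted p = 0.00245). Col1a2 measured 44.8, 38.1 and 74.5 CPM at 10 µg/kg, against 22, 15.4 and 22.4 CPM in vehicle livers (log2 fold change 1.39, SE 0.31, adjusted p = 0.00216). Col4a3 and Col4a4, basement membrane chains typical of the kidney, rose as well. Col4a3 measured 28.3, 31.1 and 16.6 CPM in the 10 µg/kg livers, against 0.261, 0.261 and 0.321 CPM in the vehicle livers (log2 fold change 6.46, SE 0.43, adjusted p = 4.40e-11). Col4a4 changed by 3.50 (SE 0.35, adjusted p = 4.71e-08). Col3a1, the other abundant fibrillar chain, was at 74.1 ± 30.4 CPM at 10 µg/kg against 38.7 ± 11.8 CPM in vehicle livers and missed the threshold (adjusted p = 0.0663). Col27a1 fell to 4.38 ± 0.742 CPM at 10 µg/kg against 27.1 ± 8.86 CPM in vehicle livers (log2 fold change -2.63, SE 0.35, adjusted p = 5.36e-06).

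Of 26 genes of crosslinking and matrix glycoproteins 12 were called higher and 3 lower. Their list summed to 2150, 1802 and 2080 CPM at 10 µg/kg, against 2646, 2826 and 2853 CPM in vehicle livers, so the sum was lower. Tnc, tenascin C of healing tissue, measured 18.4, 16.5 and 22 CPM at 10 µg/kg, against 1.38, 0.628 and 1.65 CPM in vehicle livers (log2 fold change 3.92, SE 0.39, adjusted p = 6.05e-08). Lox, which crosslinks collagen, measured 0.835, 1.25 and 2.28 CPM in the 10 µg/kg livers, against 0.298, 0.105 and 0.401 CPM in the vehicle livers (log2 fold change 2.36, SE 0.54, adjusted p = 0.00240). Loxl4, a lysyl oxidase family member, went the other way and measured 1.1, 0.788 and 1.18 CPM at 10 µg/kg, against 18, 25.4 and 26.6 CPM in vehicle livers (log2 fold change -4.49, SE 0.32, adjusted p = 8.49e-11), with all 3 livers at 10 µg/kg near 1 CPM. Dcn, a small proteoglycan of quiescent stroma, was at 195 ± 21.5 CPM at 10 µg/kg against 181 ± 21.1 CPM in vehicle livers (adjusted p = 0.751). The count of higher members was 5 without the third 10 µg/kg liver and 7 without the second vehicle liver.

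Among matrix proteases and their inhibitors 9 of 21 were called higher and 0 lower. Mmp13, the rodent interstitial collagenase, measured 3.71, 3.66 and 9.87 CPM in the 10 µg/kg livers, against 0.410, 0.261 and 0.0401 CPM in the vehicle livers (log2 fold change 4.55, SE 0.56, adjusted p = 1.68e-06). Mmp12, macrophage elastase, measured 8.15, 5.33 and 15.1 CPM at 10 µg/kg, against 0.560, 0.261 and 0.522 CPM in vehicle livers (log2 fold change 4.36, SE 0.70, adjusted p = 9.91e-05). Mmp8, the collagenase of neutrophils, measured 1.0, 1.11 and 6.03 CPM in the 10 µg/kg livers, against 0.0373, 0 and 0 CPM in the vehicle livers (adjusted p = 0.0156). The vehicle livers held 1 read of Mmp8, and the pooled ratio of 10 µg/kg over vehicle was 186 (95% interval 32.9 to 7368) for counting error only. The call of Mmp8 ended without the third 10 µg/kg liver or any 1 of the vehicle livers (highest adjusted p 0.0837). All 3 proteases were near 0 in the vehicle livers, and the third 10 µg/kg liver was the highest for each. The inhibitors Timp1 and Timp3 were among the higher members. Adam9 and Mmp19 were not called (adjusted p = 0.773 and 0.963).

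Growth factor genes of the TGF-beta and EGF families gave a few large rises. Of 26 TGF-beta and BMP genes 5 were called higher and 2 lower, beside 11.3% and 11.2% of all genes. Tgfb2, a ligand, measured 11.8, 8.95 and 12.9 CPM at 10 µg/kg, against 0.336, 0.261 and 0.321 CPM in vehicle livers (log2 fold change 5.15, SE 0.43, adjusted p = 2.10e-09). Ltbp2, a matrix protein of the latent TGF-beta binding family, rose to 5.31 ± 2.71 CPM at 10 µg/kg against 1.36 ± 0.497 CPM in vehicle livers (log2 fold change 1.94, SE 0.37, adjusted p = 3.23e-04). Fst, follistatin, which traps activins, measured 0.668, 0.417 and 0.169 CPM in the 10 µg/kg livers, against 3.92, 1.52 and 7.67 CPM in the vehicle livers (log2 fold change -3.34, SE 0.77, adjusted p = 0.00338). The higher count was 3 without the second vehicle liver, and the lower count 1 without the first or the second 10 µg/kg liver or the third vehicle liver. Of 11 EGF family genes 4 were called higher and 0 lower. The ligand Nrg1 measured 3.67, 3.90 and 7.68 CPM at 10 µg/kg, against 0.149, 0.105 and 0.161 CPM in vehicle livers (log2 fold change 5.11, SE 0.48, adjusted p = 1.43e-08). The receptor Erbb4, to which neuregulins bind, measured 9.29, 9.93 and 10.5 CPM in the 10 µg/kg livers, against 1.23, 1.1 and 1.36 CPM in the vehicle livers (log2 fold change 3.00, SE 0.35, adjusted p = 4.62e-07). Egfr was at 99.98 ± 23.3 CPM at 10 µg/kg against 279 ± 138 CPM in vehicle livers and was not called (adjusted p = 0.0733).

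Chemokine and cytokine genes were mostly higher where called, with 14 of 31 called higher and 2 lower. The summed level of the list was lower, at 577, 594 and 612 CPM at 10 µg/kg, against 802, 760 and 848 CPM in vehicle livers. Ccr1, a receptor of myeloid cells, measured 1.44, 1.39 and 3.88 CPM at 10 µg/kg, against 0.0746, 0.0523 and 0.241 CPM in vehicle livers (log2 fold change 4.08, SE 0.71, adjusted p = 1.69e-04). Its ligand Ccl3 rose to 0.706 ± 0.218 CPM at 10 µg/kg against 0.101 ± 0.113 CPM in vehicle livers (log2 fold change 2.62, SE 0.66, adjusted p = 0.00589). Ccl4, of the same family, rose to 1.26 ± 0.562 CPM at 10 µg/kg against 0.145 ± 0.107 CPM in vehicle livers (log2 fold change 3.00, SE 0.59, adjusted p = 5.87e-04). Every 10 µg/kg liver lay above every vehicle liver for these 3 genes. Ccl22, a chemokine of dendritic cells, rose to 2.56 ± 0.261 CPM at 10 µg/kg against 0.201 ± 0.105 CPM in vehicle livers (log2 fold change 3.65, SE 0.57, adjusted p = 3.20e-05). The count of higher members was 6 without the second vehicle liver and 7 without the third 10 µg/kg liver or the third vehicle liver.

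MHC class II genes, which present antigen on dendritic cells, macrophages and B cells, were called higher for 9 of 10 tested members, with a median log2 fold change of 1.54. Ciita, their master regulator, rose to 5.62 ± 1.95 CPM at 10 µg/kg against 1.18 ± 0.856 CPM in vehicle livers (log2 fold change 2.22, SE 0.39, adjusted p = 1.44e-04). Cd74, the invariant chain, measured 325, 288 and 359.9 CPM in the 10 µg/kg livers, against 199, 57.5 and 57.5 CPM in the vehicle livers (log2 fold change 1.63, SE 0.43, adjusted p = 0.00913). The first vehicle liver stood above the other two. The call of Cd74 ended without the second or the third vehicle liver (highest adjusted p 0.0617). The summed level of the 10 genes was 714, 765 and 934 CPM in the 10 µg/kg livers, against 491, 169.6 and 173 CPM in the vehicle livers. The groups did not overlap, and the count of higher members was 5 without the second or the third vehicle liver.

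Marker lists of other cells differed in how many members were called, beside the 11.3% of all genes called higher and the 11.2% called lower. The counts of 1 or 2 members for Kupffer, T and NK, and B and plasma cells lay near the higher share. For stellate cells 4 of 16 and for endothelium 3 of 12 were called higher and 0 lower, which is above the higher share. For recruited monocytes and macrophages 8 of 14 markers were called higher and 1 lower, and their summed level was 279.5, 290.3 and 482 CPM in the 10 µg/kg livers, against 129, 98.5 and 120.4 CPM in the vehicle livers. The third 10 µg/kg liver was the highest. Lgals3, galectin 3, rose to 29.99 ± 6.52 CPM at 10 µg/kg against 5.08 ± 1.68 CPM in vehicle livers (log2 fold change 2.55, SE 0.40, adjusted p = 6.60e-05). Ms4a7 rose to 3.41 ± 1.57 CPM at 10 µg/kg against 0.662 ± 0.150 CPM in vehicle livers (log2 fold change 2.34, SE 0.55, adjusted p = 0.00338). The higher count was 4 without the third 10 µg/kg liver, and the lower count 0 without the first or the second 10 µg/kg liver or the first or the third vehicle liver. For Kupffer cells, the resident macrophages, 2 of 10 were called higher, and the defining marker Clec4f was at 119 ± 20.5 CPM at 10 µg/kg against 115 ± 12.8 CPM in vehicle livers (adjusted p = 0.924). The count for Kupffer cells was 1 without any 1 of the 10 µg/kg livers or any 1 of the vehicle livers.

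For neutrophils 6 of 11 markers were called higher, with a summed level of 20.7, 32.5 and 63.3 CPM in the 10 µg/kg livers, against 6.01, 3.29 and 4.37 CPM in the vehicle livers. The count was 0 without the third 10 µg/kg liver or the second or the third vehicle liver, 1 without the first vehicle liver and 3 without the second 10 µg/kg liver, so it changed with single livers. S100a8, an alarmin of neutrophils, measured 3.14, 7.79 and 14.7 CPM at 10 µg/kg, against 0.373, 0.575 and 0.722 CPM in vehicle livers (log2 fold change 3.93, SE 1.21, adjusted p = 0.0252), and this call ended without the third 10 µg/kg liver or any 1 of the vehicle livers (highest adjusted p 0.0980). For dendritic cells 4 of 7 markers were called higher. Itgax, the integrin CD11c, rose to 4.33 ± 1.08 CPM at 10 µg/kg against 0.927 ± 0.478 CPM in vehicle livers (log2 fold change 2.19, SE 0.47, adjusted p = 0.00153). Flt3, a receptor of their precursors, rose to 1.01 ± 0.415 CPM at 10 µg/kg against 0.271 ± 0.0614 CPM in vehicle livers (log2 fold change 1.87, SE 0.41, adjusted p = 0.00158). For T and NK cells 1 of 14 was called higher, Cd8a at 1.39 ± 0.397 CPM at 10 µg/kg against 0.283 ± 0.196 CPM in vehicle livers (log2 fold change 2.32, SE 0.49, adjusted p = 0.00114). The count was 2 without the third 10 µg/kg liver or the first vehicle liver. For B and plasma cells 2 of 11 were called higher, with 0 without the third vehicle liver and 1 without the second or the third 10 µg/kg liver or the second vehicle liver.

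For stellate cells and fibroblasts 4 of 16 markers were called higher and 0 lower, and their summed level was 848, 644 and 740.0 CPM in the 10 µg/kg livers, against 740.4, 498 and 620.5 CPM in the vehicle livers. The type I collagens count among these markers as well as among the collagen chains. For sinusoidal endothelium 3 of 12 were called higher, with a count of 1 without the third vehicle liver. Clec4g was at 77.9 ± 4.99 CPM at 10 µg/kg against 52.2 ± 11.8 CPM in vehicle livers and was not called (adjusted p = 0.141). For cholangiocytes and ductular cells 3 of 10 were called higher and 1 lower, and the summed level was 101, 111 and 226 CPM in the 10 µg/kg livers, against 89.5, 60.9 and 80.8 CPM in the vehicle livers. Prom1, a stem and duct marker, measured 10.1, 23.7 and 24.6 CPM in the 10 µg/kg livers, against 2.87, 2.04 and 1.04 CPM in the vehicle livers (log2 fold change 3.28, SE 0.55, adjusted p = 1.91e-04). The third 10 µg/kg liver carried the highest sum. The higher count was 1 without the third 10 µg/kg liver or the second vehicle liver, and the lower count 0 without the first or the second 10 µg/kg liver or the first or the third vehicle liver. How far the makeup of the tissue enters the matrix, chemokine and MHC results was not tested.

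Of 13 pancreatic acinar markers, 5 had enough reads to be tested, and Prss1, Amy2a1, Cel and Cela3b were at 0 in all 27 livers. Prss2 and Cpa1 were at 0 in both groups, and Cpb1 and Pnlip had 1 read each at 10 µg/kg and 0 in the vehicle livers. Of the tested markers, Pnliprp1 and Pnliprp2 were called higher and Cela1 lower, the lower count was 2 without the first 10 µg/kg liver, and all 5 had an unadjusted p below 0.05. Ctrb1, a chymotrypsinogen, had 8 reads in all at 10 µg/kg against 0 in the vehicle livers and was not called (adjusted p = 0.0719). Cela2a, an elastase, had 15 reads at 10 µg/kg against 34 in the vehicle livers and was not called (adjusted p = 0.145). The part of acinar RNA in the level of Pnliprp1 was not tested.

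Of 8 adipocyte markers 2 had enough reads to be tested, 1 called higher and 1 lower. Car3, a carbonic anhydrase that is abundant in fat, muscle and liver, measured 266, 166 and 151 CPM at 10 µg/kg, against 2666, 1546 and 2859 CPM in vehicle livers (log2 fold change -3.60, SE 0.56, adjusted p = 7.50e-05). Every 10 µg/kg liver lay below every vehicle liver. Fabp4, a fatty acid carrier of fat cells and macrophages, rose to 8.99 ± 2.18 CPM at 10 µg/kg against 5.17 ± 0.375 CPM in vehicle livers (log2 fold change 0.80, SE 0.23, adjusted p = 0.0155), and that call ended without the first 10 µg/kg liver or the second or the third vehicle liver (highest adjusted p 0.111). The defining markers were at or near 0: Lep at 0 in all 27 livers, Plin1 at 0 in both groups, and Adipoq at 0 reads at 10 µg/kg and 6 in the vehicle livers. Summed over all 8, the level was 278, 174 and 159 CPM in the 10 µg/kg livers, against 2672, 1551 and 2864 CPM in the vehicle livers, nearly all of it Car3. Of 9 epithelial genes 6 were called higher. Krt23, a keratin of stressed hepatocytes and epithelia, measured 14.5, 18 and 9.96 CPM in the 10 µg/kg livers, against 0.821, 1.1 and 1.44 CPM in the vehicle livers (log2 fold change 3.65, SE 0.66, adjusted p = 3.82e-04), with separate groups. The muscle markers came mostly from 1 vehicle liver: Acta1 and Mylpf summed to 4.51, 9.55 and 8.48 CPM in the 10 µg/kg livers, against 0.672, 0.994 and 117 CPM in the vehicle livers. Without the third vehicle liver the log2 fold change of Acta1, skeletal actin, was 7.99 (adjusted p = 0.00121), against -1.15 (adjusted p = 0.559) with it.

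**Figure D5:**
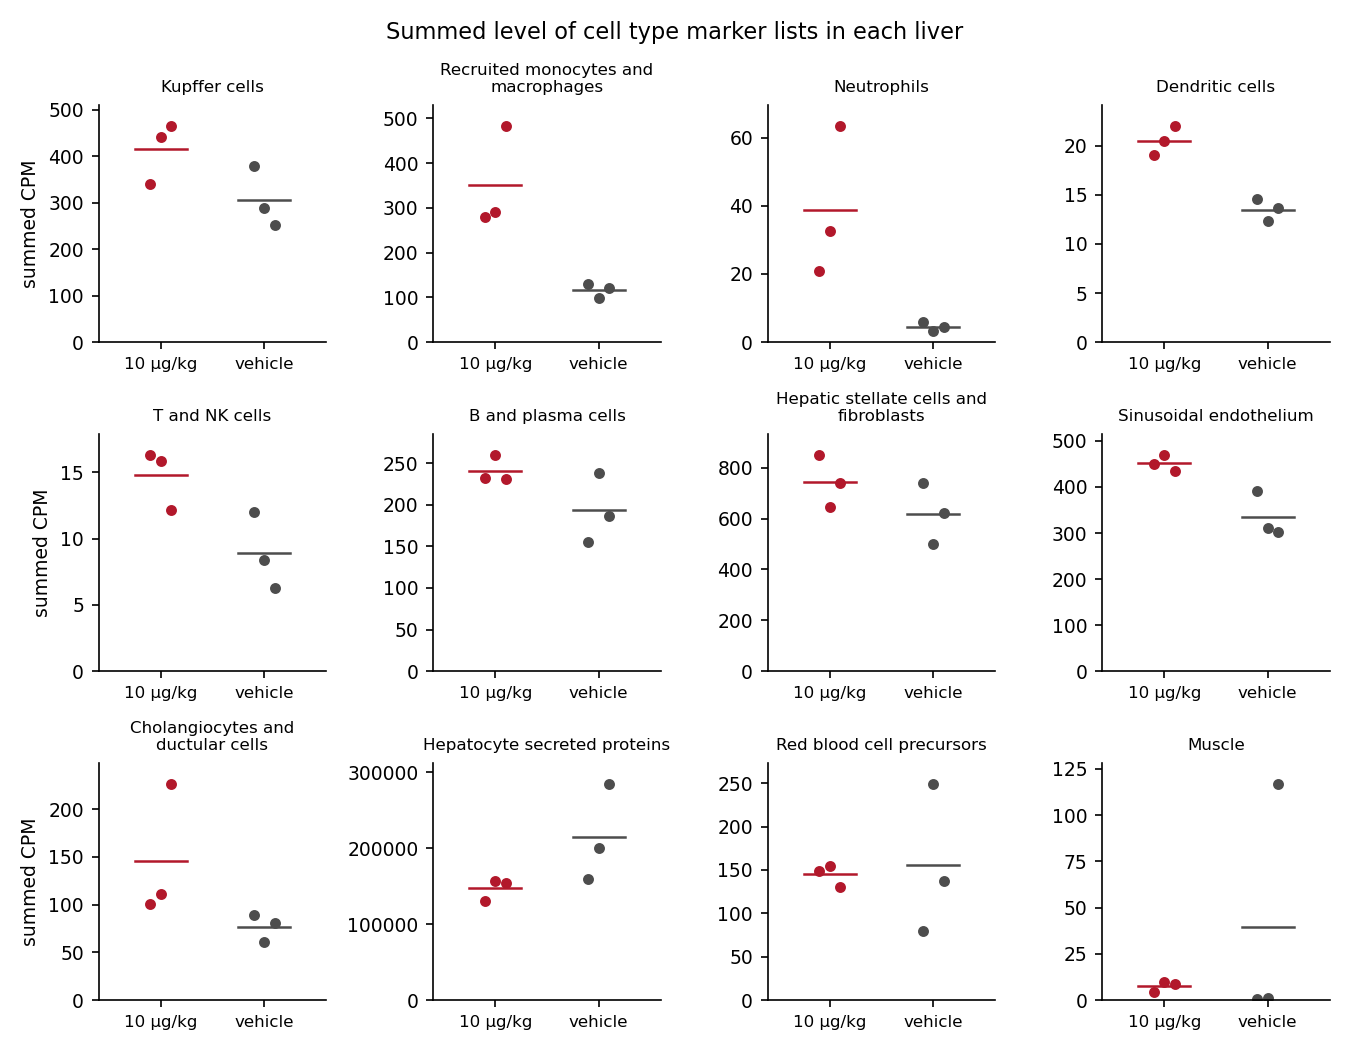
Summed level of 12 cell type marker lists in each liver, in CPM on linear axes that start at 0, with lines at the means and the 10 µg/kg livers left of the vehicle livers. The neutrophil, monocyte and ductular sums are highest in the third liver at 10 µg/kg, and the muscle sum in the third vehicle liver.

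Cell cycle genes rose in number. Of 25 tested members 16 were called higher and 1 lower, with a median log2 fold change of 1.64. Summed over the list, the level was 269, 242 and 310 CPM at 10 µg/kg, against 242, 374 and 241 CPM in vehicle livers. The sums of the groups overlapped. Ccne1, the cyclin of the G1 to S transition, measured 1.17, 1.81 and 2.53 CPM at 10 µg/kg, against 0.112, 0.261 and 0.161 CPM in vehicle livers (log2 fold change 3.37, SE 0.49, adjusted p = 1.51e-05). Birc5, survivin of the mitotic spindle, measured 1.80, 3.29 and 3.75 CPM in the 10 µg/kg livers, against 0.560, 0.732 and 0.602 CPM in the vehicle livers (log2 fold change 2.22, SE 0.52, adjusted p = 0.00283). Mki67, the common marker of cycling cells, measured 4.58, 6.77 and 15.8 CPM at 10 µg/kg, against 1.64, 1.78 and 1.04 CPM in vehicle livers (log2 fold change 2.61, SE 0.69, adjusted p = 0.00972), and that call ended without the third 10 µg/kg liver or the third vehicle liver (highest adjusted p 0.0677). Ccnd1, the cyclin first raised in regenerating liver, was at 129 ± 14.2 CPM at 10 µg/kg against 179.7 ± 73.2 CPM in vehicle livers (adjusted p = 0.199), with 23.4% of its exonic length overlapped on the other strand. The count of higher members was 6 without the third vehicle liver and 8 without the third 10 µg/kg liver, that of lower members was 0 without any 1 of the 6 livers, and with RLE factors 18 were called higher and 0 lower. Which cells carried these transcripts cannot be read from whole liver.

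Stress genes were called in both directions, at shares not far from those of all genes. Of 18 members of the ER stress and integrated stress response 3 were called higher and 3 lower. Of all genes 11.3% were called higher and 11.2% lower. Asns, asparagine synthetase, measured 6.98, 4.13 and 0.759 CPM in the 10 µg/kg livers, against 0.149, 0.209 and 0.0803 CPM in the vehicle livers (log2 fold change 4.75, SE 1.03, adjusted p = 0.00202). Trib3, a pseudokinase of the same response, rose to 18.2 ± 5.68 CPM at 10 µg/kg against 4.87 ± 0.693 CPM in vehicle livers (log2 fold change 1.90, SE 0.30, adjusted p = 3.98e-05). Pdia4, a chaperone of the endoplasmic reticulum, fell to 113 ± 2.74 CPM at 10 µg/kg against 189.7 ± 27 CPM in vehicle livers (log2 fold change -0.75, SE 0.15, adjusted p = 6.87e-04). Of 10 immediate early genes 0 were called by edgeR or DESeq2, and 2 had an unadjusted p below 0.05. Of 7 mitochondrially encoded genes 0 were called by either tool, and 0 had an unadjusted p below 0.05. Among 10 reference genes Hprt alone was called (log2 fold change 0.45, SE 0.15, adjusted p = 0.0321), and not without the second or the third 10 µg/kg liver or the first or the third vehicle liver (highest adjusted p 0.0945).

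The livers of the 10 µg/kg group were about as alike as the vehicle livers. The median ratio of the highest to the lowest liver was 1.25 over 9789 genes that averaged 5 CPM or more at 10 µg/kg, against 1.22 over 9568 such genes in the vehicle group. The ratio passed 4-fold for 36 genes (0.368%) at 10 µg/kg and for 33 (0.345%) in the vehicle group. The third liver stood farthest from the vehicle livers for 787 of 1510 genes called higher with at least 1 CPM, the second for 404 and the first for 319. Among 1637 genes called lower the second liver was farthest most often, for 678, the third for 540 and the first for 419.

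A few called genes spread widely within the 10 µg/kg group. Ly6d, a surface protein of B cell precursors and squamous epithelia, measured 12.4, 21.5 and 60.1 CPM at 10 µg/kg, against 2.16, 2.09 and 1.69 CPM in vehicle livers (log2 fold change 3.98, SE 0.75, adjusted p = 7.70e-04). Amn, the amnionless subunit of the vitamin B12 receptor, measured 2.34, 5.19 and 12.6 CPM in the 10 µg/kg livers, against 0.0373, 0.261 and 0.0803 CPM in the vehicle livers (log2 fold change 5.79, SE 0.72, adjusted p = 2.12e-06). Nipal2, a putative magnesium transporter, measured 3.27, 9.14 and 14.2 CPM at 10 µg/kg, against 0.410, 0.366 and 0.241 CPM in vehicle livers (log2 fold change 4.68, SE 0.53, adjusted p = 4.39e-07). In these 3 genes the third liver was the highest and the first the lowest. Cntnap1, a protein of myelinated axons, ran the other way and measured 15.5, 2.27 and 4.98 CPM in the 10 µg/kg livers, against 2.16, 2.35 and 1.61 CPM in the vehicle livers (log2 fold change 1.91, SE 0.46, adjusted p = 0.00367), with the first liver far above the other two and the second within the vehicle range. Its call ended without the first 10 µg/kg liver (highest adjusted p 0.131).

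Against the next lower dose few genes separated. In the direct test of 10 against 3 µg/kg 160 genes (1.06%) were called, 102 higher (0.675%) and 58 lower (0.384%). These comparisons share the 10 µg/kg livers with the comparison with vehicle. Col9a2 averaged 13.9 ± 0.513 CPM at 3 µg/kg, 193 ± 60.4 at 10 µg/kg and 410.0 ± 69.5 at 30 µg/kg, and the log2 difference of 10 over 3 µg/kg was 3.79 (SE 0.28, adjusted p = 5.49e-09). Ecel1 averaged 0.0694 ± 0.0270 CPM at 3 µg/kg, 9.85 ± 2.60 at 10 µg/kg and 43.3 ± 5.95 at 30 µg/kg. It had 3 reads in all at 3 µg/kg, and the pooled ratio of 10 over 3 µg/kg was 159 (95% interval 54.3 to 774) for counting error only. St14, the membrane serine protease matriptase of epithelia, averaged 1.21 ± 0.191 CPM at 3 µg/kg, 35.8 ± 16.8 at 10 µg/kg and 68.6 ± 9.85 at 30 µg/kg, with a log2 difference of 4.84 (SE 0.43, adjusted p = 2.37e-07). Each of these 3 genes was far higher at 10 than at 3 µg/kg in every liver. Nipal2 averaged 0.262 ± 0.0951 CPM at 3 µg/kg, 8.88 ± 5.48 at 10 µg/kg and 29.98 ± 9.99 at 30 µg/kg, with 5.05 (SE 0.58, adjusted p = 8.34e-06). Rtn4rl2, a Nogo receptor homologue, differed by 3.88 (SE 0.61, adjusted p = 8.35e-04), and Sapcd2, a spindle orientation protein, by 4.33 (SE 0.54, adjusted p = 2.36e-05).

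Hao1 had the largest fall between these doses and averaged 15.5 ± 6.26 CPM at 3 µg/kg, 0.0731 ± 0.0655 at 10 µg/kg and 0.0676 ± 0.0635 at 30 µg/kg, with a log2 difference of 10 over 3 µg/kg of -7.73 (SE 0.48, adjusted p = 2.47e-10). Cyp2g1, an olfactory P450, differed by -2.81 (SE 0.40, adjusted p = 1.84e-04). Sult3a1 differed by -5.23 (SE 1.08, adjusted p = 0.0180), and its call ended without the second or the third 10 µg/kg liver or the first 3 µg/kg liver (highest adjusted p 0.154). Mmd2 differed by -4.05 (SE 0.85, adjusted p = 0.0180), and its call ended without any 1 of the 10 µg/kg livers or without the third 3 µg/kg liver (highest adjusted p 0.150). Cyp1a1 was already near its level, at 5261 ± 509 CPM at 3 µg/kg, 5736 ± 731 at 10 µg/kg and 7201 ± 652 at 30 µg/kg, with 0.12 (SE 0.22, adjusted p = 0.924), while Cyp1b1 was not, at 222 ± 26.2 CPM at 3 µg/kg, 719 ± 135 at 10 µg/kg and 1964 ± 636 at 30 µg/kg, with 1.70 (SE 0.25, adjusted p = 2.19e-04). The call count of 160 was 71 without the third 10 µg/kg liver, and it was 75, 95 and 73 without the first, the second and the third 3 µg/kg liver.

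Against the next higher dose 484 genes (3.2%) were called, 276 higher at 10 µg/kg (1.83%) and 208 lower (1.38%). This count was unstable. It was 46 and 144 without the first and the second 10 µg/kg liver, and 65, 1741 and 57 without the first, the second and the third 30 µg/kg liver. With only the 6 compared libraries fitted, 2 genes were called. Ecel1 and Cyp1b1 are given because they were named above, and the other genes described are among the 6 largest differences in their direction. Larger log2 differences, not described further, were -5.96 for Reg3g, -5.49 for Lypd8, -5.26 for Dmbt1 and -5.11 for Muc4. In the other direction they were 3.78 for Adgrf1 and 3.32 for Cyp2c69 and Cyp3a44. Reg3g, Lypd8, Adgrf1, Cyp2c69 and Cyp3a44 each lost their call in 2 or more of 6 fits without 1 library. The log2 difference of 10 over 30 µg/kg was -2.14 (SE 0.26, adjusted p = 3.41e-04) for Ecel1 and -1.45 (SE 0.25, adjusted p = 0.00205) for Cyp1b1. Tgm3, an epidermal transglutaminase, averaged 0.0294 ± 0.0509 CPM at 3 µg/kg, 0.60 ± 0.515 at 10 µg/kg and 19.9 ± 12.3 at 30 µg/kg, with -5.07 (SE 0.63, adjusted p = 4.37e-04). Gabrp, an epithelial GABA receptor subunit, averaged 0.0422 ± 0.0442 CPM at 3 µg/kg, 0.288 ± 0.192 at 10 µg/kg and 8.11 ± 6.22 at 30 µg/kg, with -4.85 (SE 0.80, adjusted p = 0.00206). In the other direction Cyp2c38 averaged 165 ± 31.0 CPM at 3 µg/kg, 63.8 ± 30.5 at 10 µg/kg and 7.03 ± 5.72 at 30 µg/kg, with 3.17 (SE 0.48, adjusted p = 0.00158). Slc13a5, the citrate importer, averaged 3.57 ± 1.2 CPM at 3 µg/kg, 1.71 ± 0.416 at 10 µg/kg and 0.267 ± 0.266 at 30 µg/kg, with 2.73 (SE 0.62, adjusted p = 0.0174), and that call ended without the first or the second 10 µg/kg liver or the first 30 µg/kg liver (highest adjusted p 0.113). Hao1 was near 0 in both groups, with a log2 difference of -0.11 (SE 1.02, adjusted p = 0.973).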

How the data were processed

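The deposited files hold raw counts of reads per gene identifier for each library, which the authors made from TRIzol-extracted liver RNA with an Illumina TruSeq kit, per the labels' protocols. The submitters' processing notes name FastQC 0.11.2, cutadapt 1.4.1, TopHat 1.4.1, SAMtools 0.1.19, HTSeq 0.6.1, DESeq and GRCm38; no source used here gives a strand setting or annotation release. Summary lines that name no gene were left out of library sizes. Reads on no feature were 5.62% to 11.9%, and ambiguous reads 1.79% to 3.49%, of the reads on genes, on none and ambiguous ones. Totals over the 27 libraries ranged from 434011 to 30873586 reads.

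GENCODE vM21 gave symbols, coordinates and exonic lengths for 40254 of 41388 identifiers. Counts were fitted in edgeR 4.0.16 (R 4.3.3) with TMM factors and a 1-way model over all 27 libraries and 9 groups, after filterByExpr with a minimum count of 10. The quasi-likelihood test was robust, and p-values were adjusted by Benjamini-Hochberg over all 15121 genes tested. The SE is the absolute log2 fold change over the square root of F. Bounds set a library with 0 reads to 3 counts, and intervals are exact at 95% and cover counting error only. The p-values set each difference against the spread between libraries of the same group, estimated over all 27 libraries. On simulated counts for this comparison (15021 genes, 200 changed) the fit called 19.4% of genes changed 1.5-fold, 65.7% of those changed 2-fold and 98.5% of those changed 4-fold, with 5.43% false calls.

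Named genes were the 15 largest rises and falls (called, 1 CPM or more in the higher group, no overlap, no predicted gene models), the AhR battery, up to 4 called and 2 uncalled members of each of 59 gene lists, 6 rises and falls against 3 and 30 µg/kg, 8 called genes of widest spread, and Ahr and Arnt. Some genes that this rule takes are not reported here. The members and lists were chosen with earlier results of these data known. The alternatives were RLE and upper-quartile factors, DESeq2 1.42.0, 2 other filters, fits of fewer libraries, a replicate block, a non-robust fit, a stricter adjusted p of 0.01, a test against 1.5-fold, the 0.3 µg/kg group in place of vehicle, and leaving out each library.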

Additional observations from a re-analysis of the deposited data

How the results depend on the processing

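The 3402 calls against vehicle became 1129 in a test against 1.5-fold, 1883 at an adjusted p of 0.01 and 2016 with the 0.3 µg/kg group in place of vehicle. Leaving out 1 library gave 2162 to 2820 calls, with 2162 without the third vehicle liver. The other settings gave 2881 to 4290. The 160 calls against 3 µg/kg became 341 in a fit of the 6 libraries alone, 246 without the 1 µg/kg group, 59 against 1.5-fold and 69 at 0.01, and 71 to 130 without 1 library. The 484 calls against 30 µg/kg became 2 with the 6 libraries alone, 37 against 1.5-fold and 110 at 0.01, and 46 to 1741 without 1 library. Stricter limits lower counts by construction. Fits of fewer libraries moved counts both ways, and the cause was not tested.

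Replicate numbers in the labels name no shared animal or batch. The deviations of livers of the same number correlated at 0.337, 0.125 and 0.0863, and those of unlike number at -0.241 to 0.156. Whether livers of the same number shared a batch was not tested. A fit with a replicate block gave 3395 calls against vehicle, and in the 6 libraries alone 4290 with the block against 3904 without it.

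Of the 339 named genes, 324 with RLE factors and 327 with DESeq2 stayed on their side of the threshold against vehicle. The direction turned round in a called value for 1 gene under 1 setting: Acta1, at 7.99 (adjusted p = 0.00121) without the third vehicle liver, with a range of -1.71 to 7.99 over the fits without 1 library. Without 1 library, 30 to 49 named genes lost their call. Further, 21 of the 59 list counts moved by over 1.5 times without the third 10 µg/kg liver or the third vehicle liver. With 3 livers a group, many 1.5-fold changes may be missed at this depth, as they were in the simulated counts. Genes with a few reads are known only to the interval given. Transport, complement and coagulation calls depended on scaling as given with their values. So did lower calls more widely, with 1689 genes lower under TMM, 1259 with RLE factors, 1238 with upper-quartile factors and 1272 with DESeq2. With RLE factors the lower count went from 7 to 3 for lipoprotein and from 7 to 4 for cholesterol genes. It went from 8 to 5 for fatty acid oxidation and from 12 to 8 for nuclear receptors and hepatocyte factors.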

Other observations

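Beyond the genes described above, which were the more abundant ones, a few further genes had 0 reads in one group and at least 10 in every liver of the other. They were chosen after their values were seen. In all, 11 genes were read in each 10 µg/kg liver and not in any vehicle liver, and 3 the other way round. Duox1, an NADPH oxidase of thyroid and airway epithelia, had 15, 25 and 16 reads in the 10 µg/kg livers and 0 in the vehicle livers, at least 6.00-fold higher with each vehicle library set to 3 counts. Krt25, a keratin of the hair follicle, had 29, 22 and 13 reads at 10 µg/kg and 0 in the vehicle livers, at least 6.52-fold higher. For both genes every 10 µg/kg liver had reads and no vehicle liver did. Mup-ps10, an annotated pseudogene of the major urinary proteins, had 28, 16 and 12 reads at 10 µg/kg and 0 in the vehicle livers, at least 5.61-fold higher, and its reads may belong to other family members. Cdx4, a homeobox factor of the embryonic body axis, went the other way with 0 reads in the 10 µg/kg livers and 15, 18 and 10 in the vehicle livers, at least 5.20-fold lower.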
